A study of Mus musculus with 2 samples.

Results

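The stathmin family in mouse consists of Stmn1, Stmn2, Stmn3 and Stmn4, genes for small phosphoproteins that bind tubulin. The 4 genes were taken by their Ensembl identifiers out of 12530 mouse genes that were listed for 2 ribosome profiling libraries of spinal cord, and all 4 were present in both. The family was chosen by the reads and RPKM values of Stmn1, which was among the largest decreases between these libraries, and with the values of the other members known, so the ratios between genotypes are a description, with counting intervals and no p-value. One library came from animals of the GarsC201R/+ genotype, heterozygous for a missense allele of the glycyl-tRNA synthetase gene Gars, and the other from wild-type (WT) animals. Each library was made from the pooled spinal cord lysates of 3 animals of a genotype, digested with RNase I to leave the fragments that ribosomes protect, and the labels give no age, sex, strain or treatment of the animals. With 1 library per genotype, no difference below has a replicate check, and the intervals cover counting error only.

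Stathmins hold soluble tubulin dimers in a complex that does not polymerise, and they promote the shrinkage of microtubules, an activity that is switched off when kinases phosphorylate them. Stmn1 encodes stathmin itself, a cytosolic protein made in many cell types, most strongly in dividing cells and developing neurons. Stmn2 (SCG10), Stmn3 (SCLIP) and Stmn4 (RB3) are mainly neuronal, and their proteins carry an added N-terminal stretch that is palmitoylated and anchors them to Golgi and vesicle membranes. Stmn2 is concentrated in growth cones and has been studied in axon growth and regeneration. In human motor neurons it is known as a target of the RNA-binding protein TDP-43, whose loss leads to mis-spliced STMN2 transcripts.

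In the RefSeq annotation of GRCm38, the build that the submitters' processing notes name, the genes lie on separate chromosomes. Stmn1 spans bases 134468320 to 134473843 of chromosome 4, and Stmn2 spans 8509527 to 8561604 of chromosome 3. Stmn3 spans 181306459 to 181314500 of chromosome 2, and Stmn4 spans 66344210 to 66361680 of chromosome 14. How reads that match more than 1 place in the genome were counted is not given in the sources used here. Each total may therefore include fragments of closely similar sequence from elsewhere, or lack fragments of its own that also match elsewhere. Neither was tested.

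The listed gene reads summed to 3491159 in the GarsC201R/+ library and 7770935 in the WT library, a 2.23-fold difference in depth. Reads are therefore compared after TMM scaling, which sets the libraries to a common level over most genes. RPKM values, reads scaled to gene length and library total, are given as deposited. A ribosome profiling read total combines the amount of mRNA with its translation, and in whole tissue fewer cells of a type and less RNA per cell cannot be told apart. The identifiers of other genes could not be paired with symbols, so neuronal, glial and other cell type markers, the kinases that act on stathmins and other microtubule regulators were not analysed here.

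Stmn1 (ENSMUSG00000028832) was the member that differed most between the libraries. The GarsC201R/+ library held 10 reads of Stmn1 (Poisson 95% interval 4.80 to 18.4), against 199 reads (172 to 229) in the WT library. On the RPKM scale its level was 2.68 in the GarsC201R/+ library and 24.1 in the WT library. Equal levels would have given 92.8 reads in the GarsC201R/+ library. The log2 ratio of the GarsC201R/+ over the WT library was -3.17 (95% counting interval -4.30 to -2.30), a level of 11.1% of that in WT. Within the GarsC201R/+ library 20.8% of the 12530 genes had a lower RPKM than Stmn1, against 77.3% within the WT library. The gene thus stood in the lower part of the listed genes in the GarsC201R/+ library and in the upper part in the WT library. The lowest RPKM listed for any gene in the GarsC201R/+ library was 0.501, so Stmn1 was above the lowest listed level there. By reads, however, its 10 placed it at rank 11714 of the 12530 genes in that library, near the low end.

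Stmn3 (ENSMUSG00000027581) was the most abundant member in both libraries. It had 2835 reads (2732 to 2941) in the GarsC201R/+ library and 9683 reads (9491 to 9878) in the WT library. Its RPKM was 709 in the GarsC201R/+ library and 1094 in the WT library, which placed it at rank 41 among all genes in the GarsC201R/+ library and at rank 24 in the WT library. Its log2 ratio was -0.67 (-0.73 to -0.61), a level of 62.8% of that in WT.

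Stmn4 (ENSMUSG00000022044) had 1125 reads (1060 to 1193) in the GarsC201R/+ library and 3445 reads (3331 to 3562) in the WT library. Its RPKM was 245 in the GarsC201R/+ library and 339 in the WT library. The log2 ratio of Stmn4 was -0.51 (-0.61 to -0.42), a level of 70.0% of that in WT.

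Stmn2 (ENSMUSG00000027500) differed least. It had 1845 reads (1762 to 1931) in the GarsC201R/+ library and 4858 reads (4722 to 4997) in the WT library. Its RPKM was 253 in the GarsC201R/+ library and 301 in the WT library. The log2 ratio of Stmn2 was -0.30 (-0.37 to -0.22), a level of 81.4% of that in WT. All 4 members thus had a lower level in the GarsC201R/+ library, with counting intervals that excluded equal levels. The sizes ran from 1.23-fold for Stmn2 to 9.02-fold for Stmn1. Counting intervals are narrow for genes with many reads. The share of all genes whose intervals exclude equal levels is not given here, so this count is not read as particular to the family.

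**Figure D1:**
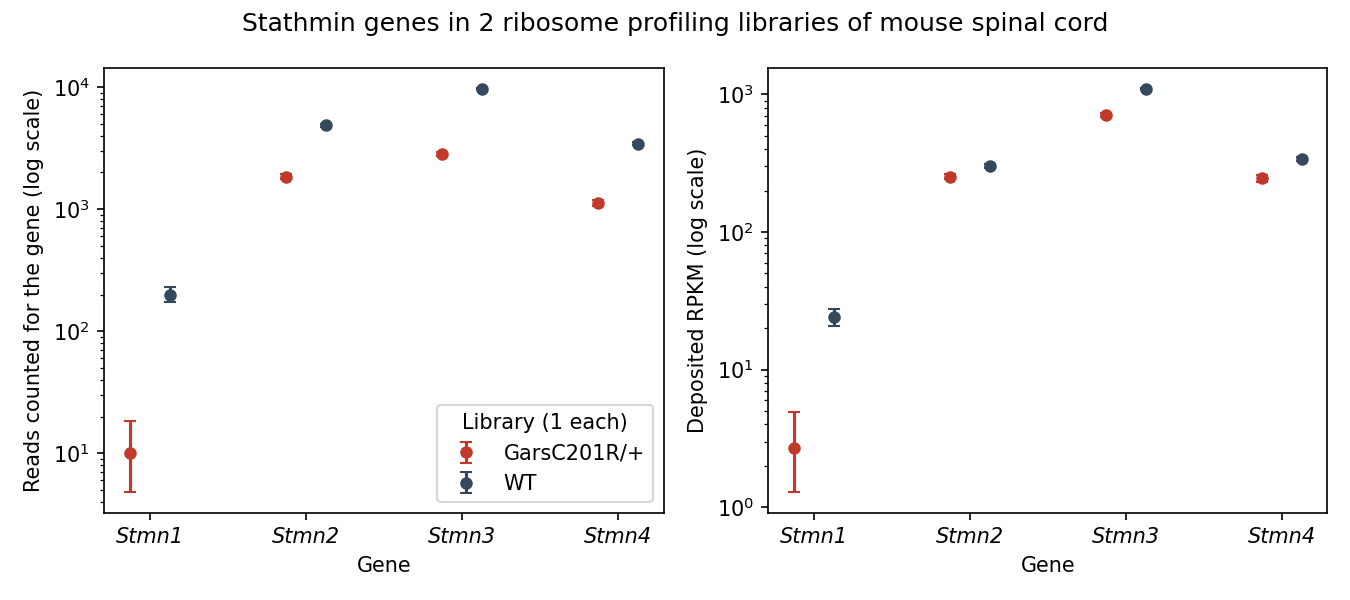
Reads (left panel) and deposited RPKM (right panel) of the 4 stathmin genes, both on log axes, with the GarsC201R/+ library in red and the WT library in dark blue. Points are single libraries and bars are 95% Poisson intervals of the reads. Stmn1 lies at 10 reads in the GarsC201R/+ library and 199 reads in the WT library, and the other 3 genes lie at 1125 to 2835 reads in the GarsC201R/+ library and 3445 to 9683 reads in the WT library.

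Genes with at least 100 reads over both libraries were compared, and 1 was counted as lower or higher where its ratio was 1.5-fold or more and the counting interval did not hold equal levels. By this rule Stmn1 and Stmn3 were lower, whereas Stmn2 and Stmn4 differed by less than that fold and no member was higher. Stmn1 passed the read minimum only through its 199 reads in the WT library, and its ratio is the value that chose the family, so its place under this rule was fixed by the choice. Across the 9726 genes compared, 11.2% were lower and 8.14% were higher. Because the members were chosen with these ratios known, their count of 2 of 4 is not read against that share. Over all genes compared the median log2 ratio was -0.034, and 52.9% of them had a ratio below 0. The median of the 4 members was -0.59, and it was -0.51 without Stmn1, whose ratio chose the family. These member medians are likewise a description.

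The ratios of single genes varied between these libraries by more than counting error, and by more at low than at high read numbers, so each member was set beside genes of like depth. Beside the 209 reads of Stmn1 in both libraries together, 1491 other genes had 168 to 261 reads, and across them the log2 ratio had a median of -0.011 and a robust SD of 0.54. The lowest of these was at -2.04. Stmn1, at -3.17, had the third lowest ratio of all 9726 genes, which restates why it was chosen and adds no support to its decrease. The lowest of all, at -5.21, belonged to a gene with 265 reads in both libraries together, just above that window. Every listed gene had reads in both libraries, with a lowest RPKM of 0.501 in the GarsC201R/+ library and 0.183 in the WT library. Genes without reads in a library are therefore outside these ranks.

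The neuronal members lay nearer to genes of their own depth. Stmn3 was compared with 43 genes of 10069 to 15526 reads in both libraries together, whose median log2 ratio was -0.15 with a robust SD of 0.24, and 2 of the 43 were as low as its -0.67. For Stmn4, 24 of 241 genes with 3665 to 5703 reads were as low as its -0.51, around a median of -0.047 and a robust SD of 0.34. For Stmn2, 34 of 134 genes with 5368 to 8339 reads (25.4%) were as low as its -0.30, around a median of -0.072 and a robust SD of 0.32. The counting intervals of these 3 genes exclude equal levels, but a ratio of the size seen for Stmn2 was common among genes of its depth.

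**Figure D2:**
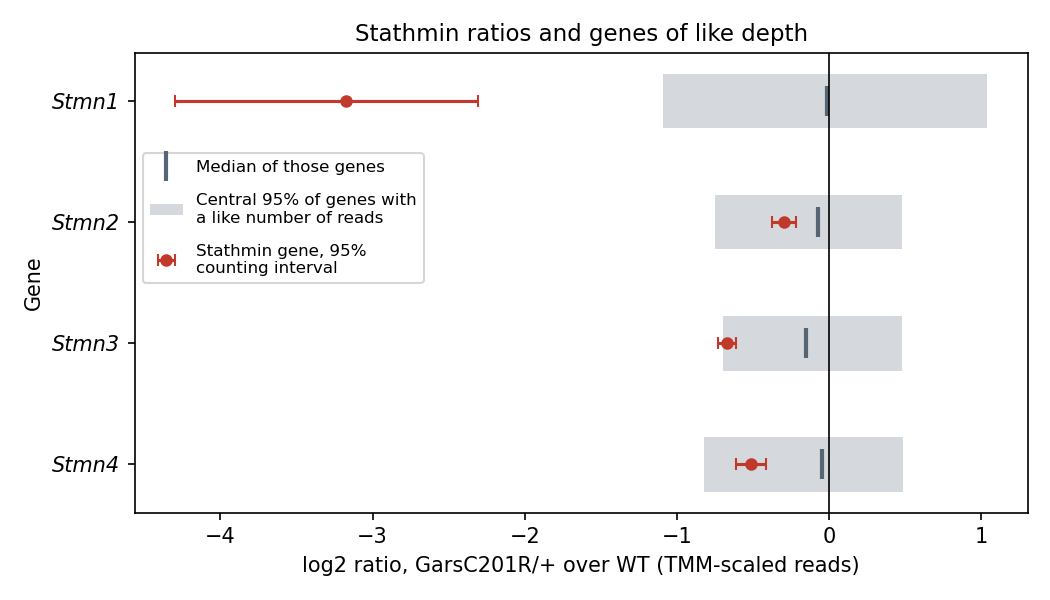
The log2 ratio of the GarsC201R/+ over the WT library for each stathmin gene (red points, bars are 95% counting intervals), beside the genes with a like number of reads (grey bars span the central 95% of their ratios, dark ticks are their medians). Stmn1 at -3.17 lies far left of its grey bar, Stmn3 at -0.67 lies near the left edge of its bar, and Stmn4 at -0.51 and Stmn2 at -0.30 lie inside theirs.

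**Figure D3:**
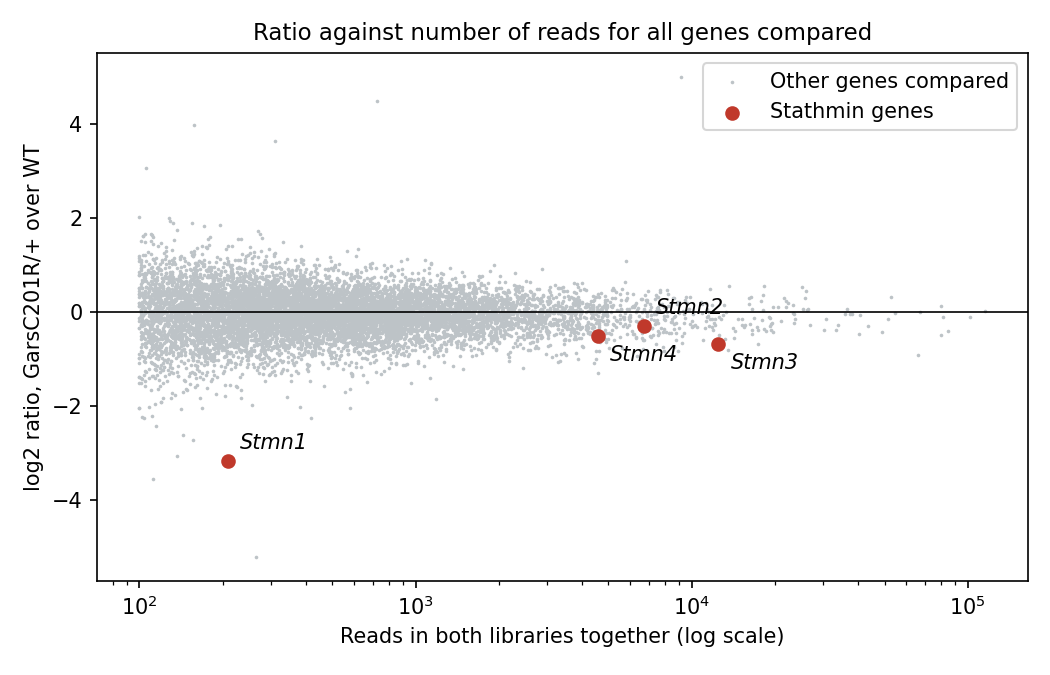
The log2 ratio of the GarsC201R/+ over the WT library (vertical axis) against the reads in both libraries together (log horizontal axis) for the 9726 genes compared in grey, with the 4 stathmin genes in red. The spread of the grey points narrows towards high read numbers, Stmn1 lies below the cloud, and Stmn2, Stmn3 and Stmn4 lie in its lower part among the genes with many reads.

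The balance between members also differed between the libraries. Ratios between members within a library do not depend on how the libraries are scaled. Stmn1 made up 0.172% of the family's 5815 reads in the GarsC201R/+ library (95% Wilson interval 0.0934% to 0.316%), against 1.09% of its 18185 reads in the WT library (0.953% to 1.26%). Stmn3 gave 48.8% of the family's reads in the GarsC201R/+ library and 53.2% in the WT library. The share of Stmn2 was 31.7% (30.5% to 32.9%) in the GarsC201R/+ library and 26.7% (26.1% to 27.4%) in the WT library, and that of Stmn4 was 19.3% and 18.9%, with overlapping intervals. Stmn3 therefore held a smaller and Stmn2 a larger part of the family's reads in the GarsC201R/+ library, with intervals that did not overlap. These intervals cover counting error only. The difference in log2 ratio between Stmn2 and Stmn3 was smaller than the spread among genes of like depth, as given below.

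By reads, the order was Stmn3, Stmn2, Stmn4 and Stmn1 in both libraries. Per length, Stmn2 and Stmn4 lay close together, and Stmn4 was above Stmn2 by more than counting error in the WT library. In the GarsC201R/+ library Stmn2 had an RPKM of 253 (Poisson interval 241 to 265) and Stmn4 one of 245 (231 to 260), which do not differ beyond counting error. In the WT library Stmn2 had an RPKM of 301 (292 to 309) and Stmn4 one of 339 (328 to 351). The lengths behind these values were 2073 nt for Stmn2, 1303 nt for Stmn4, 1136 nt for Stmn3 and 1060 nt for Stmn1. Of all gene lengths 33.7% were multiples of 3, so the lengths are not those of coding sequences alone, and levels per length of different members also carry the size of their untranslated parts.

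Among the 6 pairs of members, each pair's log2 ratios differed with a 95% counting interval that excluded 0, without adjustment over the pairs. The share of pairs of other genes that do so is not given here. Stmn1 was chosen for its decrease, so its pairs restate that choice. Stmn1 was lower than Stmn2 by the widest margin, with a difference in log2 ratio of -2.92 (-4.00 to -2.0). Its difference from Stmn4 was -2.70 (-3.79 to -1.78) and from Stmn3 -2.54 (-3.63 to -1.63). Between the neuronal members the differences were small. They were 0.38 (0.28 to 0.47) for Stmn2 minus Stmn3, 0.22 (0.092 to 0.34) for Stmn2 minus Stmn4 and -0.16 (-0.27 to -0.042) for Stmn3 minus Stmn4. Combining the robust SDs of the genes of like depth gave a spread of 0.40 for a difference between genes read as deeply as Stmn2 and Stmn3, 0.46 for Stmn2 and Stmn4 and 0.41 for Stmn3 and Stmn4. All 3 differences were smaller than that spread.

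Taken as 1 sum, Stmn2, Stmn3 and Stmn4 had 5805 reads in the GarsC201R/+ library, 0.166% of the gene reads, and 17986 reads in the WT library, 0.231% of the gene reads. The log2 ratio of this sum was -0.53 (-0.57 to -0.49), a level of 69.2% of that in WT. Had Stmn1 followed that ratio, 64.2 reads would have been counted for it in the GarsC201R/+ library, against the 10 that were. Its log2 ratio was lower than that of the other 3 together by -2.64 (-3.77 to -1.77). Because Stmn1 was chosen for its decrease, this gap is a description and adds no support to that decrease. Adding Stmn1 to the sum moved its ratio only to -0.54, because the gene is a small part of the family's reads in either library.

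Few genes had a ratio like that of Stmn1, which follows from its choice as one of the largest decreases. Among the 4531 genes with a mean RPKM within 2-fold of its 13.4, 0 had a log2 ratio within 0.1 of its own. The nearest was ENSMUSG00000006638, with 7 reads in the GarsC201R/+ library and 130 reads in the WT library, a log2 ratio of -3.06 (-4.46 to -2.03). Next was ENSMUSG00000059070, with 4 reads in the GarsC201R/+ library and 108 reads in the WT library, a log2 ratio of -3.55 (-5.56 to -2.26). This likeness is over 2 libraries only. For the other members such neighbours were 58 of 341 genes for Stmn2, 34 of 327 for Stmn4 and 1 of 72 for Stmn3.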

How the data were processed

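Per the labels' protocols, lysates of 3 animals per genotype were pooled before library construction. Per the submitters' processing notes, Bowtie 1.2.2, HTSeq 0.9.1 and GRCm38 were used, with settings not given in the sources used here. Each gene has a count of reads and an RPKM value, per the file headers, and the counts were used as deposited by the authors. Reads divided by RPKM gave the gene lengths as whole numbers.

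Counts of the 12530 genes, without 18 ERCC spike-ins, were scaled with TMM in edgeR 4.0.16 (R 4.3.3). To each library a prior count of 0.5, weighted by depth, was added before taking log2 ratios. Ratio intervals are exact conditional binomial intervals, intervals of differences between members are exact conditional odds ratio intervals, all at 95%. A robust SD is the scaled median absolute deviation. PCR duplicates could not be recognised. No p-value between genotypes was calculated, as 1 library each leaves no residual degrees of freedom.

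The members, lists and named-gene rule were chosen with earlier results of these data known. The rule named the 4 members and, for each, the 2 genes most like it in ratio at a mean RPKM within 2-fold. The most similar genes are printed for Stmn1 alone, by identifier. In the RefSeq table of 49997 genes, 0 identifiers matched a symbol. The fixed gene and marker lists were therefore not analysed here. Member symbols and identifiers were given together at the outset. Alternatives were other scalings (total reads, DESeq2 1.42.0, upper quartile, leaving out genes above 1% of a library), prior counts, read minimums, a 99% interval, a 2-fold limit and the deposited RPKM values. Other steps used Python 3.11.15, scipy 1.17.1 and matplotlib 3.10.9.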

Additional observations from a re-analysis of the deposited data

Results flagged for a closer look

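Outside the gene comparison, 18 ERCC spike-in rows held 22857 reads in the GarsC201R/+ library and 520 reads in the WT library, 0.650% and 0.00669% of the listed reads. They took no part in the TMM scaling, so each TMM-scaled stathmin ratio is relative to the gene reads of its library. The deposited RPKM values rest on totals of 3520348 in the GarsC201R/+ library and 7790126 in the WT library, which exceed the listed gene reads.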

How the results depend on the processing

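The ratios of the 4 members kept their direction under the 4 other scalings, the 2 other prior counts and the RPKM ratio. Stmn1 lay between -3.21 and -3.06, Stmn2 between -0.30 and -0.24, Stmn3 between -0.67 and -0.62 and Stmn4 between -0.52 and -0.46, all within their counting intervals. These settings shift the ratios little, so this is no check of direction, and a 99% interval cannot move a ratio. Total-read scaling moved the log2 ratio of the summed reads to -0.49 for all 4 genes and to -0.48 without Stmn1. The count of stathmin genes called lower was 1 with a 2-fold limit, which left Stmn1, and 1 with a minimum of 500 reads, under which Stmn1 was left out. Over all genes, 166 were higher and 267 lower with a 2-fold limit, and 158 higher and 348 lower with a minimum of 500 reads. Against 792 higher and 1087 lower with at least 100 reads, there were 1321 and 1353 with at least 20 reads and 1379 and 1353 when no minimum was set, so only without a minimum did more of them lie higher than lower among these read minimums and that of 500. Total-read scaling also turned that balance, with 9.79% of the genes higher and 9.45% lower. Alternatives planned for gene lists could not be run without symbols for the identifiers. No paired analysis was possible because there was 1 library per genotype. With 10 reads of Stmn1 in the GarsC201R/+ library, counting error alone leaves its decrease between 4.94-fold and 19.7-fold, and variation between animals was not measured.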
